A study of Mus musculus with 12 samples.

Results

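The TRBV13 family of T cell receptor (TCR) beta chains, known in older nomenclature as Vbeta8, has 3 members in mice, TRBV13-1, TRBV13-2 and TRBV13-3. Members were the productive beta chain clonotypes whose best-scoring V segment was 1 of these 3, which gave 148104 of 572021 clonotype entries over 12 libraries. They held 339002 of 1233404 productive reads: 169747 of TRBV13-1, 41898 of TRBV13-2 and 127357 of TRBV13-3. Productive means that the CDR3 was covered by the reads and stayed in frame to its end without a stop.

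The libraries came from sorted thymocytes of 3 wild-type (WT) mice and 3 Chrna9-/- mice, which lack a subunit of nicotinic acetylcholine receptors. Each mouse gave 1 library of CD4 single-positive (CD4SP) and 1 of CD8 single-positive (CD8SP) cells, from 1000000 and 330000 sorted cells, so the 4 groups had 3 libraries each. The mice were 2 male pairs and 1 female pair without treatment, neither age nor strain is stated in the labels, and the series title names negative selection of thymocytes as the question. Cells were sorted on CD4 and CD8 alone, so immature single-positive and NKT cells could be among them.

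A TCR beta chain is made when a V, a D and a J segment are joined in the developing thymocyte. CDR1 and CDR2 are encoded by the V segment and mostly touch the MHC molecule, while CDR3 spans the join and mostly touches the bound peptide. CD4SP cells are selected on MHC class II and CD8SP cells on MHC class I, and the Vbeta8 segments are among the most used in mice, with TRBV13-2 (Vbeta8.2) the main beta segment of invariant natural killer T (NKT) cells.

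The 3 genes lie on chromosome 6 of GRCm38 (mm10), TRBV13-1 at 41116036 to 41116468, TRBV13-2 at 41121396 to 41121832 and TRBV13-3 at 41130147 to 41130585. Between successive members lie 4927 and 8314 bases. CDR1, CDR2 and the start of CDR3 are printed because all later values rest on telling the members apart. The rest of the V segment is not shown. Each printed sequence is the deposited one with the most reads for its member, with differing bases in capitals.
TRBV13-1 CDR1: aataGccaCAacTaC
TRBV13-2 CDR1: aataAccaCAacAaC
TRBV13-3 CDR1: aataAccaTGacTaT
TRBV13-1 CDR2: tcatatgGTgctgGcaAc
TRBV13-2 CDR2: tcatatgGTgctgGcaGc
TRBV13-3 CDR2: tcatatgTCgctgAcaGc
TRBV13-1 CDR3 start: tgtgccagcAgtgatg
TRBV13-2 CDR3 start: tgtgccagcGgtgatg
TRBV13-3 CDR3 start: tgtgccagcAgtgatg

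TRBV13-1 and TRBV13-2 differed in 2 of the 15 CDR1 bases and 1 of the 18 CDR2 bases, whereas TRBV13-3 differed from each of them in 4 CDR1 bases. At the start of CDR3, read in joins with no V base lost, TRBV13-1 and TRBV13-3 were identical over 16 bases and TRBV13-2 differed in 1. The CDR1 shown was present in 99.7% of TRBV13-1 reads, 99.1% of TRBV13-2 reads and 99.7% of TRBV13-3 reads. The CDR1 of another member appeared in at most 0.246% of a member's reads, and only 4 reads had 2 V segments of equal score. CDR3 with the same J segment and the same bases occurred under both TRBV13-1 and TRBV13-3: 2.85% of TRBV13-1 clonotypes had such a match in their own library and 2.82% in libraries of other mice. Such matches of TRBV13-2 were rarer but more frequent in the own library. With TRBV13-3 they made up 0.320% of TRBV13-2 clonotypes there and 0.108% in other mice, and with TRBV13-1 0.132% and 0.0627%. Whether mixed V assignments add to these was not tested.

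Libraries held 74021 to 104434 productive beta chain reads in CD4SP and 92648 to 134169 in CD8SP, with 7016 to 19482 reads of TRBV13-1 or TRBV13-3 and 2588 to 4186 of TRBV13-2 in each. Reads carry no molecular identifiers, and more RNA per cell cannot be told apart from more cells. The invariant NKT alpha chain (TRAV11 with TRAJ18, 15 residues) made up 6.71% ± 1.09 of alpha chain reads in CD4SP and 0.0640% ± 0.0151 in CD8SP (SD, n = 6). The alpha chain of MAIT cells made up 0.0236% ± 0.0104 and 0.0337% ± 0.00866.

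TRBV13-2 took a larger share of the repertoire in CD4SP than in CD8SP thymocytes, and TRBV13-1 and TRBV13-3 took smaller ones. In CD4SP, TRBV13-1 made up 12.4%, 12.5% and 11.5% of productive reads in WT mice 1, 2 and 3, and 12.2%, 12.1% and 11.9% in knockout mice 1, 2 and 3. In CD8SP the corresponding shares of TRBV13-1 were 14.8%, 14.96% and 14.5% in WT and 15.3%, 15.1% and 15.3% in knockout mice. All 6 CD4SP libraries were thus below all 6 CD8SP libraries. TRBV13-2 had 4.10%, 3.83% and 4.19% in WT CD4SP and 4.01%, 4.12% and 4.08% in knockout CD4SP. It had 2.79%, 3.07% and 2.64% in WT CD8SP and 3.09%, 3.03% and 2.82% in knockout CD8SP, again with no overlap between the lineages but in the opposite direction. TRBV13-3 had 9.47%, 9.55% and 9.48% in WT CD4SP and 9.71%, 9.44% and 9.69% in knockout CD4SP. Its CD8SP shares were 11.4%, 10.7% and 10.8% in WT and 10.9%, 10.5% and 11.2% in knockout mice, all above the CD4SP ones.

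**Figure D1:**
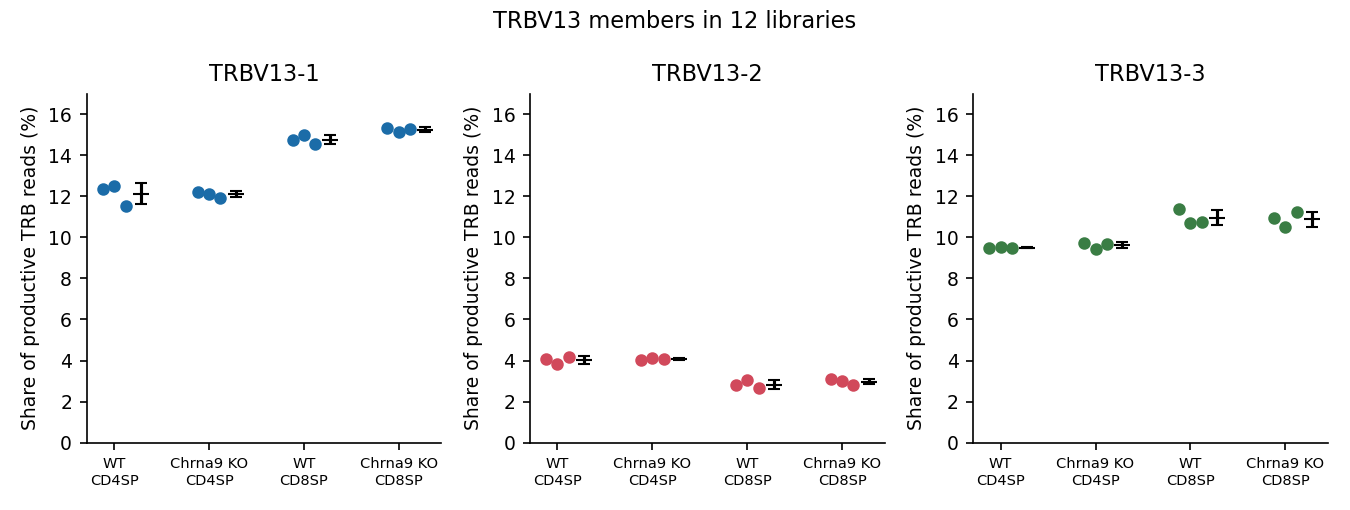
Share of productive beta chain reads (%) of each TRBV13 member in the 12 libraries, by group. Points are single mice in the order of replicates 1 to 3, and the black mark beside them is the group mean with its SD (n = 3). TRBV13-2 lies higher in CD4SP and the other members higher in CD8SP, with WT and knockout means of TRBV13-1 in CD8SP at 14.7% and 15.2%.

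On the log2 scale, with positive values higher in CD4SP, the difference was -0.31 (SE 0.015) for TRBV13-1, 0.48 (SE 0.039) for TRBV13-2 and -0.19 (SE 0.017) for TRBV13-3. All passed edgeR's quasi-likelihood test with the mouse as a block, with adjusted p-values of 1.05e-10, 2.62e-08 and 7.83e-08. Differences between lineages were common among V and J segments, of which 85.7% were called, 51.4% higher and 34.3% lower in CD4SP, so 3 of 3 members called is near the background. The shares of all segments sum to 100%, and TRBV31 alone took 21.5% in CD4SP and 5.57% in CD8SP. With TMM factors, which shifted the median of all 35 segments by -0.13, the values became -0.44, 0.35 and -0.32. With each clonotype counted once, TRBV13-1 stood at -0.19, and all 3 directions and calls held under both settings.

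Ranked among 24 TRBV segments by mean share, TRBV13-1 was 3rd in CD4SP and 1st in CD8SP, TRBV13-3 was 4th and 3rd, and TRBV13-2 was 6th and 11th. TRBV13-2, at 4.05% in CD4SP, lay close to TRBV15, the next segment down, at 3.81% ± 0.187. Across 12 libraries the segments whose log2 shares most resembled those of TRBV13-1 were TRBV12-2 (Pearson's r = 0.98), TRBV12-1 (r = 0.98) and TRBV17 (r = 0.97). For TRBV13-2 they were TRBV2 (r = 0.97), TRBV3 (r = 0.97) and TRBV31 (r = 0.96), and for TRBV13-3 they were TRBV17 (r = 0.96), TRBV14 (r = 0.95) and TRBV29 (r = 0.94). No member was thus among the 3 segments most like another member. These correlations mostly restate the split between lineages: within 6 libraries of a lineage they ranged from -0.93 to 0.83.

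Because TRBV13-2 is a known partner of the invariant NKT chain, its shares were set beside that chain. Of the other known partners, TRBV29 (Vbeta7) was lower in CD4SP, at 5.44% ± 0.273 against 11.3% ± 0.598, and TRBV1 (Vbeta2) was at 1.8% ± 0.110 against 1.75% ± 0.119. Over the 6 CD4SP libraries, the share of the invariant chain, from 5.26% to 8.49%, and that of TRBV13-2 gave r = 0.16 (exact permutation p = 0.736) and Spearman's rho = 0.31 (exact permutation p = 0.564). Without the 2 libraries farthest from the median of the invariant chain, r was 0.54. The part of NKT cells in the TRBV13-2 difference was not tested, since alpha and beta chains were not paired within cells.

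No difference between knockout and WT mice was called for any member. In CD4SP the log2 difference, knockout over WT, was -0.0035 (SE 0.024) for TRBV13-1, 0.011 (SE 0.059) for TRBV13-2 and 0.017 (SE 0.031) for TRBV13-3. In CD8SP it was 0.048 (SE 0.024) for TRBV13-1, 0.072 (SE 0.059) for TRBV13-2 and -0.0087 (SE 0.030) for TRBV13-3. The share of TRBV13-1 in CD8SP was higher in knockout mice, at 15.2% ± 0.105 against 14.7% ± 0.218, without overlap, but did not pass (edgeR adjusted p = 0.584). By edgeR 0 of 3 members were called in either lineage, with 0.0% of all segments called, and DESeq2 called 0 too. At an unadjusted p under 0.05 edgeR gave 1 of 35 segments in each lineage, none of them a member. The difference of the genotype effect between CD4SP and CD8SP was -0.051 (SE 0.027) for TRBV13-1, -0.060 (SE 0.083) for TRBV13-2 and 0.026 (SE 0.035) for TRBV13-3, with 0 called by either tool and 0 at an unadjusted p under 0.05. In percentage points of the reads it was -0.533 ± 0.199 for TRBV13-1 over the replicate numbers (exact permutation test of the signs, p = 0.25, which no result over 3 pairs can go below, and 0.811 adjusted over 40 comparisons). Replicate numbers served as pairs of WT and knockout mice in these fits, and same-numbered libraries did not deviate together in every pair.

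Joins that cannot make a receptor gave a second view of the members. Out-of-frame or stop joins are carried along by cells whose other allele is productive, so they are a usual reference for V use before selection on the receptor. In CD4SP, TRBV13-1 made up 10.8% ± 0.235 of productive clonotypes and 6.24% ± 0.634 of nonproductive ones, and in CD8SP 12.3% ± 0.319 and 6.32% ± 0.869 (SD, n = 6). TRBV13-2 made up 4.31% ± 0.147 and 1.33% ± 0.318 in CD4SP, and 3.25% ± 0.173 and 1.31% ± 0.310 in CD8SP. TRBV13-3 made up 10.1% ± 0.167 and 4.07% ± 0.588 in CD4SP, and 11.1% ± 0.203 and 5.09% ± 0.768 in CD8SP. Each member thus had the higher share among productive clonotypes in 6 of 6 mice and in both lineages (exact sign-flip permutation test, two-sided p = 0.03125 for each, the smallest that 6 mice can give, and 0.03125 adjusted over 6 comparisons). Other TRBV segments were not tested in this way, so the higher share is not shown to be particular to these members.

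**Figure D2:**
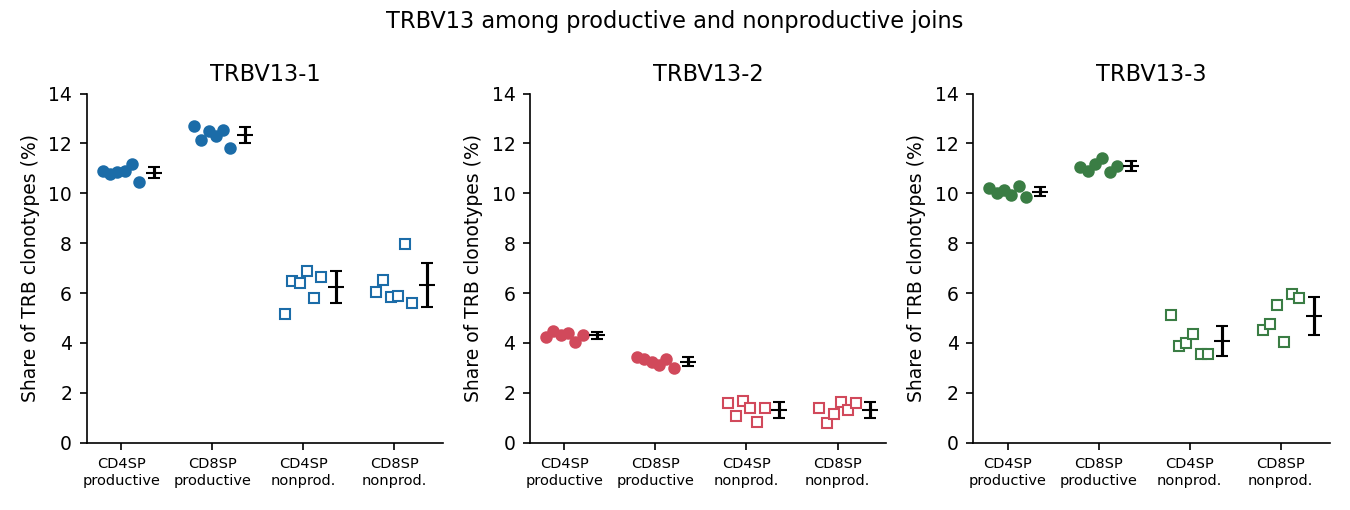
Share (%) of the 3 TRBV13 members among productive (filled circles) and nonproductive (open squares) beta chain clonotypes of each library, with CD4SP and CD8SP apart. Points are 6 mice and black marks are means with SD. Nonproductive shares of TRBV13-2 overlap between the lineages around 1.3%, and its productive shares do not.

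Nonproductive clonotypes numbered 866 to 1644 in a library, of which 9 to 26 used TRBV13-2, 51 to 98 TRBV13-1 and 35 to 84 TRBV13-3. A comparison added after these values were seen set the lineages against each other among nonproductive joins. TRBV13-2 differed between CD4SP and CD8SP by 0.0172 ± 0.383 percentage points among nonproductive clonotypes, with 3 of 6 mice higher in CD4SP, and by 1.06 ± 0.252 among productive ones, with 6 of 6 higher. The gap between those differences was 1.04 ± 0.422 points and was positive in 6 of 6 mice, but did not pass after adjustment over the 3 members (exact permutation p = 0.03125, adjusted 0.0938). TRBV13-1 differed by -0.0815 ± 1.253 points among nonproductive and by -1.49 ± 0.195 among productive clonotypes. Its gap of -1.41 points was below 0 in 5 of 6 mice and did not pass either (exact permutation p = 0.0625, adjusted 0.0938). TRBV13-3 differed by -1.01 ± 1.26 and -1.02 ± 0.317 points, a gap of -0.0044 ± 1.40 (exact permutation p = 0.969). V segments that make under 0.1% of productive reads held 12.2% of nonproductive clonotypes in CD4SP and 13.5% in CD8SP. Without them the nonproductive share of each member was still the lower one in 6 of 6 mice, at 7.10%, 1.51% and 4.64% in CD4SP for TRBV13-1, TRBV13-2 and TRBV13-3.

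Within each member, CD4SP and CD8SP cells differed in the J segment joined to it. TRBJ1-3 was joined more often in CD4SP by all 3 members. It followed TRBV13-2 in 5.07% ± 0.438 of that member's reads in CD4SP and in 2.52% ± 0.367 in CD8SP, a log2 difference of 1.01 (SE 0.11). With TRBV13-1 its share was 3.99% ± 0.449 against 2.75% ± 0.370 (0.54, SE 0.067), and with TRBV13-3 it was 5.37% ± 0.474 against 3.43% ± 0.170 (0.65, SE 0.067). Ranges did not overlap for TRBV13-2, with 4.45% to 5.70% in CD4SP and 2.01% to 2.98% in CD8SP, nor for TRBV13-3, and with TRBV13-1 they met only at the edge, since the lowest CD4SP library had 3.14% and the highest CD8SP library 3.21%. All 6 mice were higher in CD4SP for each member. TRBJ2-4 was also higher in CD4SP with all 3, by 0.29 with TRBV13-1, 0.28 with TRBV13-2 and 0.27 with TRBV13-3. Some joins were named after their values were seen: TRBJ2-4 with TRBV13-1, TRBJ2-2 with TRBV13-1 and TRBV13-3, and TRBJ2-3 with TRBV13-3.

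Other J segments were joined less often in CD4SP. TRBJ1-1 made up 8.41% ± 0.350 of TRBV13-1 reads in CD4SP and 12.02% ± 0.545 in CD8SP, a log2 difference of -0.51 (SE 0.039) with no overlap between 8.84%, the highest CD4SP value, and 11.4%, the lowest in CD8SP. With TRBV13-3 it fell by 0.26 (SE 0.053). TRBJ1-2 fell by 0.45 with TRBV13-3, TRBJ1-5 by 0.36 with TRBV13-1, and TRBJ2-1 by 0.29 with TRBV13-1 and by 0.27 with TRBV13-3. TRBJ2-2 rose in CD4SP with all 3 members, by 0.22, 0.35 and 0.24 with TRBV13-1, TRBV13-2 and TRBV13-3. Other J segments that rose included TRBJ2-5 (0.34) with TRBV13-1, TRBJ2-3 with TRBV13-1 (0.31) and TRBV13-3 (0.24), and TRBJ1-4 (0.39) with TRBV13-3.

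By edgeR's quasi-likelihood test on all V and J pairs, with the reads of the V segment as offset, 23 of 36 TRBV13 joins were called, 14 higher and 9 lower in CD4SP, where 50.2% of all 249 joins were called, 28.1% higher and 22.1% lower. TRBV13-1 had 5 higher and 5 lower of 12, TRBV13-2 had 3 higher and 0 lower, and TRBV13-3 had 6 higher and 4 lower. The median log2 difference over the 36 joins was -0.0036. TRBV13-2 had the fewest reads of the 3, and its standard error was the widest at each J segment, from 0.052 for TRBJ2-7 to 0.15 for TRBJ1-5. The adjusted p-values were 2.41e-15 for TRBJ1-1 with TRBV13-1, 2.70e-10 for TRBJ1-3 with TRBV13-2 and 2.57e-11 for TRBJ1-3 with TRBV13-3.

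**Figure D3:**
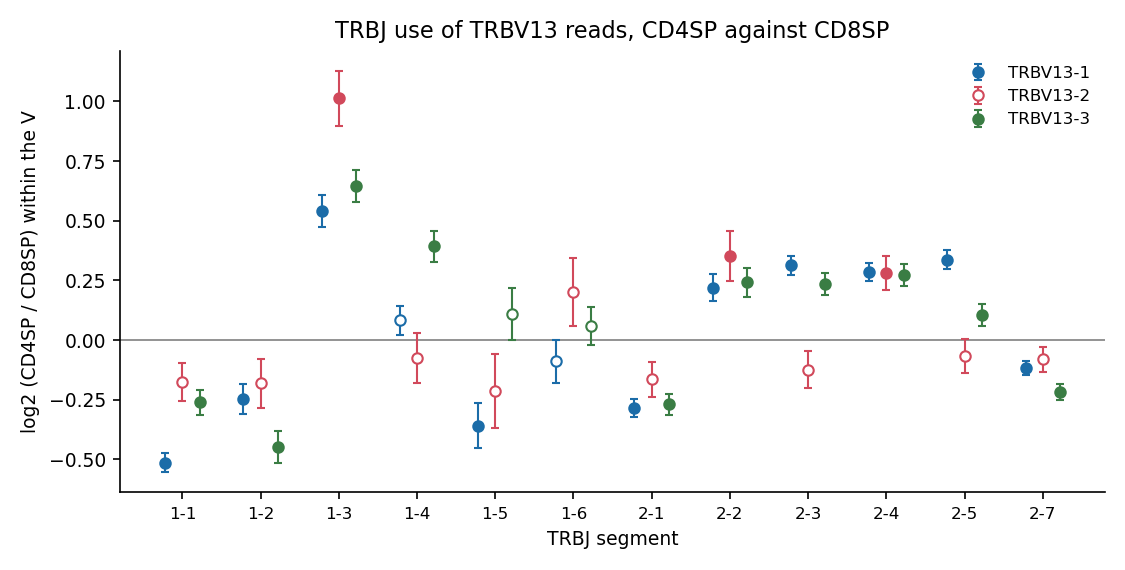
Log2 difference between CD4SP and CD8SP in the share of each TRBJ segment among the reads of a TRBV13 member. Bars are standard errors of the edgeR fit over 12 libraries, filled points passed an adjusted p of 0.05 and open ones did not. TRBJ1-3 and TRBJ2-4 lie above 0 for all 3 members, and TRBJ1-1 and TRBJ2-1 lie below.

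CDR3 loops of 13 residues were more frequent in CD4SP with every member, and loops of 11, 12, 16 and 17 residues were less frequent with every member. With TRBV13-3, loops of 13 residues made up 25.6% ± 0.406 in CD4SP and 19.2% ± 0.930 in CD8SP, and loops of 11 residues 4.05% ± 0.257 and 7.60% ± 0.679. Neither pair of ranges overlapped, since 13-residue loops reached 20.5% at most in CD8SP and 25.2% at least in CD4SP. The log2 differences were 0.42 (SE 0.029) at 13 residues, -0.90 (SE 0.053) at 11 and -1.40 (SE 0.13) at 10. TRBV13-1 showed 0.24 (SE 0.026) at 13 residues and -0.84 (SE 0.093) at 10. TRBV13-2 showed 0.41 (SE 0.056) at 13, from 20.6% ± 1.49 against 15.6% ± 1.47, and -0.37 (SE 0.094) at 11, but -0.050 (SE 0.14) at 10 residues, which did not pass.

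At 17 residues all members fell in CD4SP, by 0.47 for TRBV13-1, 0.68 for TRBV13-2 and 0.53 for TRBV13-3. At 14 residues they rose by 0.095, 0.11 and 0.086. At 15 residues TRBV13-3 rose by 0.15 and TRBV13-1 by 0.062, while TRBV13-2 stood at -0.090 without passing. By edgeR 24 of 33 length classes of the family were called, 8 higher and 16 lower, against 63.2% of all 190 classes, 24.7% higher and 38.4% lower. The median log2 difference was -0.22 over the family's 33 classes and -0.13 over the 157 classes of other TRBV segments. Adjusted p-values at 13 residues were 5.68e-12, 3.59e-09 and 1.22e-19 for TRBV13-1, TRBV13-2 and TRBV13-3. Some calls depended on the setting. The call for TRBV13-1 at 15 residues was lost on leaving out any of 5 single mice (all but WT 1), without the filter on low counts, with each clonotype counted once and without clonotypes of 1 read, and that at 18 residues (-0.56) on leaving out knockout 1, knockout 2, WT 2 or WT 3, with DESeq2 and under both clonotype settings. For TRBV13-2, the call at 8 residues (-1.08) was lost without knockout 1, knockout 2, WT 2 or WT 3, without the filter and without clonotypes of 1 read, and that at 14 residues without knockout 1 or knockout 2.

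**Figure D4:**
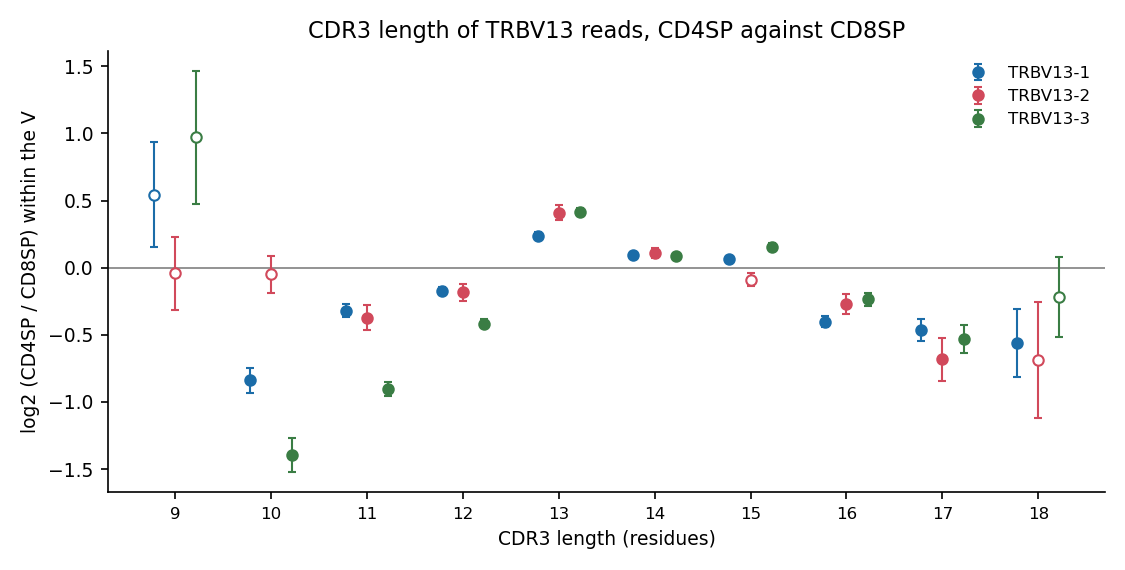
Log2 difference between CD4SP and CD8SP in the share of each CDR3 length among the reads of a TRBV13 member. Bars are standard errors of the edgeR fit, and filled points passed an adjusted p of 0.05. All members are above 0 at 13 and 14 residues and below 0 at 11, 12, 16 and 17 residues.

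Mean CDR3 length differed less than the length classes did. It was 13.67 ± 0.030 residues in CD4SP and 13.65 ± 0.044 in CD8SP for TRBV13-1, 13.66 ± 0.042 and 13.69 ± 0.065 for TRBV13-2, and 13.71 ± 0.017 and 13.57 ± 0.028 for TRBV13-3 (SD, n = 6). Only TRBV13-3 passed, with 6 of 6 mice longer in CD4SP (exact sign-flip permutation p = 0.03125, adjusted 0.0368 over 40 comparisons of 10 measures). The other measures per library were tested in the same way, and 0.03125 is the smallest p that 6 mice can give. Of 30 comparisons of a member, 24 passed, and 85.0% of the whole panel of 40, which adds only the pooled family and so holds no other TRBV segment to read this count against.

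Positions 6 and 7 of the CDR3, counted from its first cysteine as 1, follow the last residue that the TRBV13 segments encode and so vary with the join. Glutamine was more frequent there in CD4SP with all 3 members, glutamate was less frequent with all 3, and valine with TRBV13-1 and TRBV13-2. With TRBV13-1, glutamine made up 6.04% ± 0.379 of residues in CD4SP and 4.41% ± 0.212 in CD8SP, with no overlap and a log2 difference of 0.46 (SE 0.034, edgeR adjusted p = 4.44e-12). With TRBV13-3 it was 5.93% ± 0.189 against 4.94% ± 0.175 (0.26, SE 0.039), also without overlap. With TRBV13-2 it was 5.43% ± 0.485 against 4.81% ± 0.549 (0.18, SE 0.071, edgeR adjusted p = 0.0482), and that call was lost with DESeq2, without the filter on low counts, without clonotypes of 1 read and on leaving out any of 5 single mice (all but knockout 2).

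Valine fell by 0.34 (SE 0.051) with TRBV13-1 and by 0.60 (SE 0.10) with TRBV13-2, and stood at -0.14 with TRBV13-3 without passing. Glutamate, which carries a negative charge, fell by 0.24, 0.46 and 0.34 with TRBV13-1, TRBV13-2 and TRBV13-3. Lysine, which carries a positive one, fell by 0.35 with TRBV13-1 and by 0.46 with TRBV13-2, the second call being lost without clonotypes of 1 read and without knockout 2, WT 1 or WT 3. With TRBV13-1, alanine fell by 0.24, and histidine (0.34) and asparagine (0.20) rose. With TRBV13-2, proline rose by 0.51 (SE 0.090) and serine by 0.44 (SE 0.090). With TRBV13-3, isoleucine rose by 0.36, threonine fell by 0.19 and tyrosine by 0.21, the last call being lost without WT 1 or WT 2, without clonotypes of 1 read and with each clonotype counted once, which gave -0.082.

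For some residues the members went opposite ways. Arginine was higher in CD4SP with TRBV13-3, at 11.2% ± 0.230 against 9.37% ± 0.143 (0.26, SE 0.026, edgeR adjusted p = 1.57e-09), and the ranges did not overlap. It was lower in CD4SP with TRBV13-1, at 8.31% ± 0.294 against 9.24% ± 0.484 (-0.15, SE 0.027), and with TRBV13-2, at 8.14% ± 0.731 against 9.18% ± 0.429 (-0.17, SE 0.058). Leucine was lower with TRBV13-2 (-0.44, SE 0.074) and higher with TRBV13-3 (0.20, SE 0.044). Leucine, arginine with TRBV13-1 and TRBV13-2, and glutamate with TRBV13-1 were named after their values were seen, and the difference between members was not tested. By edgeR 29 of 57 residue classes of the family were called, 14 higher and 15 lower, against 38.6% of all 391 classes, 19.9% higher and 18.7% lower, and the median log2 difference was 0.054 over the 57.

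**Figure D5:**
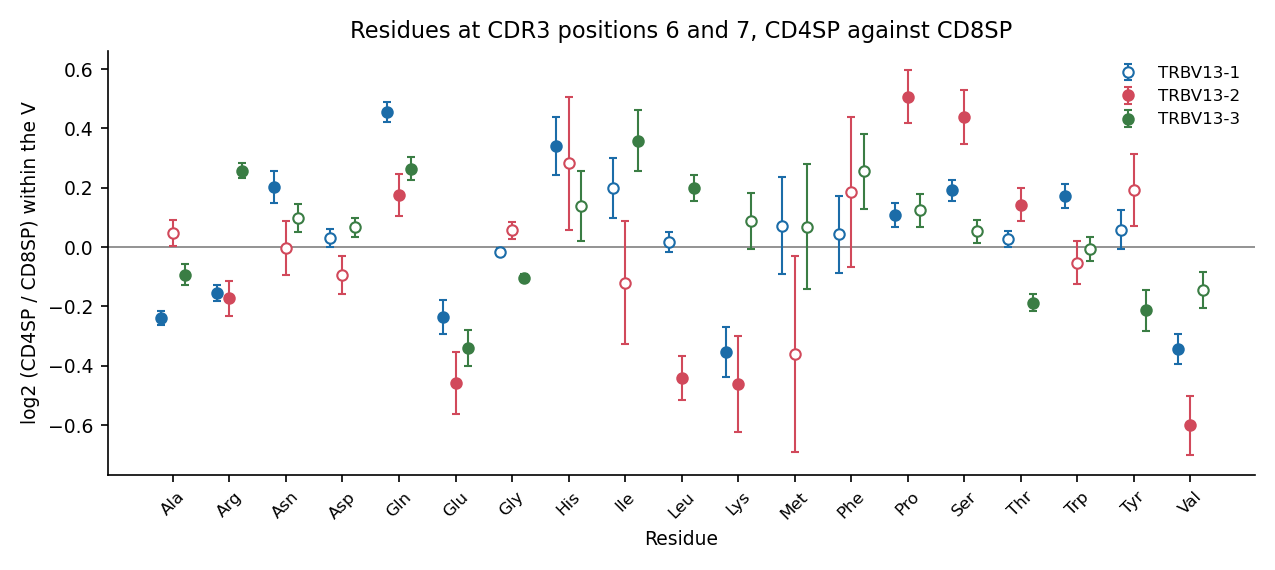
Log2 difference between CD4SP and CD8SP in the share of each amino acid at CDR3 positions 6 and 7 of a TRBV13 member. Bars are standard errors of the edgeR fit, and filled points passed an adjusted p of 0.05. Glutamine is above 0 and glutamate below 0 for all 3 members, and arginine is above 0 for TRBV13-3 only.

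Net charge over the whole CDR3 was less negative in CD4SP for each member. It is the number of arginine and lysine residues minus that of aspartate and glutamate. TRBV13-1 had -1.10 to -1.05 with a median of -1.08 in CD4SP, and -1.35 to -1.34 with a median of -1.34 in CD8SP. TRBV13-2 had -1.28 to -1.21 (median -1.26) against -1.53 to -1.45 (median -1.50), and TRBV13-3 had -1.002 to -0.92 (median -0.96) against -1.18 to -1.15 (median -1.17). The lineages did not overlap for any member, and 6 of 6 mice were less negative in CD4SP (exact sign-flip permutation p = 0.03125, adjusted 0.0368 for each). The mean differences were 0.26 ± 0.017, 0.24 ± 0.044 and 0.21 ± 0.031 charges (SD over mice). In the pooled chains of all other TRBV segments the difference was 0.025 ± 0.0068. That of the pooled TRBV13 reads was larger in 6 of 6 mice, a comparison added after values were seen and given without a test. The mix of the other segments changed between lineages: TRBV31 took 21.5% of productive reads in CD4SP and 5.57% in CD8SP. None of them was measured alone, so the pooled value is not a shift within a single V segment.

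Position 5, the last that the uncut segment encodes, is aspartate in all 3 members when no V base is lost, and it was examined after the charge difference was seen. Aspartate stood there in 43.4% ± 0.881 of TRBV13-1 residues in CD4SP and 56.3% ± 1.06 in CD8SP, and in 53.0% ± 1.46 and 62.1% ± 1.39 for TRBV13-2. For TRBV13-3 the shares were close, 42.8% ± 0.665 and 44.2% ± 0.964, with 1 of 6 mice higher in CD4SP. Arginine at this position was higher in CD4SP in 6 of 6 mice for all members, at 4.06% against 1.63%, 2.90% against 1.23% and 5.11% against 2.45%.

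Fewer bases of the V segment were left in CD4SP joins, in the pooled TRBV13 family (-0.31 ± 0.051 bases) and in the pooled other TRBV segments (-0.13 ± 0.036). TRBV13-1 contributed 13.9 ± 0.033 bases to its CDR3 in CD4SP and 14.4 ± 0.031 in CD8SP, TRBV13-2 14.4 ± 0.10 and 14.7 ± 0.080, and TRBV13-3 13.54 ± 0.034 and 13.62 ± 0.023. CD4SP was lower in 6 of 6 mice for each, without overlap (exact sign-flip permutation p = 0.03125, adjusted 0.0368). Bases between V and J were more numerous in CD4SP for TRBV13-1, at 8.61 ± 0.073 against 8.44 ± 0.075, and for TRBV13-3, at 8.79 ± 0.056 against 8.67 ± 0.069, in 6 of 6 mice each with overlapping ranges. For TRBV13-2 they were 8.28 ± 0.14 and 8.27 ± 0.20, higher in 4 of 6 mice (exact permutation p = 0.875). In the pooled other TRBV segments these bases went the opposite way, at 8.94 in CD4SP and 9.19 in CD8SP (-0.25 ± 0.047). The changed mix of the pooled segments enters both this difference and that in V bases.

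Mean hydropathy of positions 6 and 7 on the Kyte-Doolittle scale, on which lower values are more polar, was lower in CD4SP. It was -0.94 ± 0.022 against -0.86 ± 0.025 for TRBV13-1 and -1.13 ± 0.017 against -1.04 ± 0.026 for TRBV13-3, in 6 of 6 mice without overlap (exact permutation p = 0.03125, adjusted 0.0368). For TRBV13-2 it was -0.85 ± 0.029 against -0.79 ± 0.048, lower in 5 of 6 mice, and did not pass (exact permutation p = 0.09375, adjusted 0.107). In the pooled chains of the other TRBV segments hydropathy was -1.22 in CD4SP and -1.25 in CD8SP, a difference of 0.028 ± 0.030 that was within its spread, with 4 of 6 mice higher in CD4SP. Their mix of segments changed between the lineages here too.

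Mean reads per clonotype were lower in CD4SP for each member. TRBV13-1 had 1.98 to 2.26 reads per clonotype in CD4SP and 3.03 to 3.53 in CD8SP, TRBV13-2 1.72 to 1.897 and 2.27 to 2.53, and TRBV13-3 1.73 to 1.91 and 2.52 to 2.78. The other TRBV segments showed the same order, at 1.78 to 1.996 and 2.45 to 2.79. CD8SP libraries were made from fewer sorted cells and held more reads, so the lineage and the sampling cannot be told apart here. Drawn to equal reads, TRBV13-2 had 1669 ± 71.1 distinct clonotypes in CD4SP and 1289 ± 82.0 in CD8SP at 2588 reads. TRBV13-1 had 4541 ± 171 and 4242 ± 190 at 8529 reads, and TRBV13-3 had 4220 ± 129 and 3803 ± 122 at 7016 reads. Each member was higher in CD4SP in 6 of 6 mice. The pooled other TRBV segments showed the same order, with 31740 ± 986 and 27450 ± 1104 at 55377 reads. Equal reads do not make the numbers of sorted cells equal, so this measure does not part lineage from sampling either.

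Averaged over both lineages of a mouse, the members differed from each other in their joins. V bases in the CDR3 averaged 14.5 ± 0.056 for TRBV13-2, 14.1 ± 0.012 for TRBV13-1 and 13.6 ± 0.020 for TRBV13-3. Bases between V and J ran the opposite way, at 8.28 ± 0.15, 8.53 ± 0.067 and 8.73 ± 0.058. CDR3 length was 13.67, 13.66 and 13.64 residues. Net charge was -1.38 ± 0.017 for TRBV13-2, -1.21 ± 0.0085 for TRBV13-1 and -1.06 ± 0.015 for TRBV13-3. Each pair of members differed in V bases, bases between V and J, net charge and hydropathy in 6 of 6 mice (exact sign-flip permutation p = 0.03125, adjusted 0.0438 over 21 comparisons). CDR3 length and the share of TRBJ2 did not pass for any pair, with lengths differing by -0.013 ± 0.038, 0.021 ± 0.039 and 0.033 ± 0.060 residues.

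Most TRBV13 clonotypes were found in only 1 library. Counted per library, 35.9% of the family's nucleotide clonotypes had 1 read, against 39.3% over all TRBV segments. Absence from a library thus cannot be told apart from a miss by sampling. The share found in 1 library is not given for other TRBV segments. Of 102186 clonotypes told apart by member and CDR3 amino acids, 83.7% were found in 1 library and 25 in all 12: 15 with TRBV13-1, 1 with TRBV13-2 and 9 with TRBV13-3. The most shared clonotype of each member is printed to show its join, named by its amino acids. Bases between V and J, which can include D segment bases, are in capitals. In the TRBV13-1 sequence 17 bases are assigned to V, against 16 in the uncut CDR3 start above.
TRBV13-1 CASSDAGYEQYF: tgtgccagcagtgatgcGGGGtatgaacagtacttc
TRBV13-2 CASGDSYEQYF: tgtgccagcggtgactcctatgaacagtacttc
TRBV13-3 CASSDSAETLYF: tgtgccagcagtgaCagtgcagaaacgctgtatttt

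The TRBV13-1 clonotype, joined to TRBJ2-7 with 4 bases between the segments, came in 17 different nucleotide sequences. It had 1 to 17 reads in CD4SP libraries (median 6.0) and 30 to 73 in CD8SP libraries (median 46.5), without overlap, and passed (edgeR adjusted p = 0.0032). The TRBV13-2 clonotype, with 0 bases between V and J, had 33 reads in CD4SP and 36 in CD8SP libraries in all, and was not tested. The TRBV13-3 clonotype, with 1 such base, had 61 and 110 reads, and did not pass (edgeR adjusted p = 0.496).

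Only 53 of the 102186 clonotypes had enough reads to be tested, and a clonotype could enter through 1 group in which it was frequent, so the calls and their counts are a description. Of the 53, 1 was higher and 14 lower in CD4SP by edgeR, where 58.6% of all 203 tested clonotypes were called, 37.4% higher and 21.2% lower. Of the 8 called clonotypes with the largest differences per member and direction, 5 are printed to show their joins. Capitals mark the bases between V and J.
TRBV13-1 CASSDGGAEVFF: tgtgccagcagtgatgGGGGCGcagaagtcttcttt
TRBV13-1 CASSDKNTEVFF: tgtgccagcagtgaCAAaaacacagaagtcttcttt
TRBV13-2 clonotype of 15 residues: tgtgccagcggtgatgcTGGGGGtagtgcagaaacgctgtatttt
TRBV13-3 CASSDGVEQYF: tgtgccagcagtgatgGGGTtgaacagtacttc
TRBV13-3 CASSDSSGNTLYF: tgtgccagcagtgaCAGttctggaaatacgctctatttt

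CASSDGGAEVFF, joined to TRBJ1-1, had 1 read in all CD4SP libraries and 1 to 21 in each CD8SP library. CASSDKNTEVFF, also joined to TRBJ1-1, had 0 to 7 reads in CD4SP and 6 to 31 in CD8SP libraries. The TRBV13-2 clonotype, joined to TRBJ2-3, had 13 reads in CD4SP and 81 in CD8SP libraries. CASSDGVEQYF had 1 read in CD4SP and 60 in CD8SP libraries, with 1 of the 6 CD8SP libraries at 0. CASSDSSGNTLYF, joined to TRBJ1-3, was the 1 called higher in CD4SP, with 3 to 13 reads there and 0 to 7 in CD8SP. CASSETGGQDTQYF of TRBV13-1 and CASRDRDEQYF and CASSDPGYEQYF of TRBV13-3, also lower in CD4SP, had 5 against 49, 2 against 50 and 6 against 68 reads.

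Which clonotypes were called depended on single mice. Without 1 mouse at a time 12 to 16 were called, but these shared only 4 (without WT 2) to 10 (without knockout 2) with the 15 above. Without clonotypes of 1 read 7 were called, with DESeq2 25, and with no filter on low counts 0 of the 16692 found in 2 or more libraries.

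CD4SP and CD8SP libraries of 1 mouse shared more TRBV13 nucleotide clonotypes than those of different mice. For TRBV13-1, 5.42% ± 0.310 of CD4SP clonotypes were found in CD8SP of the same mouse and 3.12% ± 0.126 in CD8SP of the others, and the own mouse was highest in 6 of 6 mice. For TRBV13-3 the shares were 5.27% ± 0.475 and 2.55% ± 0.0445, also highest in 6 of 6. For TRBV13-2 they were 1.81% ± 0.343 and 1.33% ± 0.127, with the own mouse highest in 3 of 6. All members were above the mean of the other mice in 6 of 6 mice (exact sign-flip permutation p = 0.03125, adjusted 0.03125 over 3 members).

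Between knockout and WT mice no join, CDR3 length, residue or clonotype of the family was called in either lineage. By edgeR 0 of 36 joins, 0 of 33 lengths, 0 of 57 residues and 0 of 53 clonotypes were called in CD4SP and in CD8SP, and 0.0% of all features in each table, with 0 by DESeq2 too. At an unadjusted p under 0.05 edgeR gave 2 joins, 2 lengths, 2 residues and 2 clonotypes of the family in CD4SP, and 2, 5, 8 and 1 in CD8SP. Over the whole tables these were 8 of 249 joins, 10 of 190 lengths, 10 of 391 residues and 4 of 203 clonotypes in CD4SP, and 8, 9, 22 and 10 in CD8SP. The nearest to the threshold was tryptophan at positions 6 and 7 of TRBV13-1 in CD8SP, at 3.85% ± 0.219 in knockout and 4.42% ± 0.236 in WT mice (log2 difference -0.20, SE 0.049, edgeR adjusted p = 0.103). Across the alternatives its edgeR or DESeq2 adjusted p ran up to 0.995 and did not pass in any. Glutamate there with TRBV13-1 had the smallest p among residues in CD4SP, at 2.75% ± 0.391 against 2.38% ± 0.156 (0.20, SE 0.080, edgeR adjusted p = 0.972).

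Among joins, TRBJ1-3 with TRBV13-1 had the smallest p in CD4SP, at 4.29% ± 0.0758 in knockout and 3.69% ± 0.477 in WT (0.23, SE 0.10, edgeR adjusted p = 0.982), and TRBJ2-7 with TRBV13-3 in CD8SP, at 23.9% ± 0.411 and 26.0% ± 0.427 (-0.12, SE 0.047, edgeR adjusted p = 0.881). Among lengths, it was 8 residues with TRBV13-3 in CD4SP, at 0.0207% ± 0.0272 and 0.10% ± 0.0511, which rests on few reads, and 13 residues with TRBV13-3 in CD8SP, at 19.8% ± 0.893 and 18.5% ± 0.167 (0.10, SE 0.040, edgeR adjusted p = 0.753). Among clonotypes it was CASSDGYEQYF of TRBV13-3 in CD4SP (edgeR adjusted p = 1) and a TRBV13-1 clonotype of 15 residues in CD8SP (edgeR adjusted p = 0.766).

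Of the 30 comparisons of a measure of a member between genotypes, the groups did not overlap in 2 in CD4SP and 8 in CD8SP, where 0.0% were called in each. In CD4SP both were of TRBV13-3, the share of TRBJ2 at 72.7% ± 1.03 in knockout and 73.9% ± 0.298 in WT, and hydropathy at -1.14 ± 0.010 and -1.12 ± 0.014. With 3 pairs the exact sign-flip test cannot go below p = 0.25, so none could pass and the share called is fixed by the design. Labels of 3 against 3 libraries part without overlap in a share of 0.1 of their arrangements, whatever the genotype. No such count was made for other TRBV segments. In CD8SP the net charge was lower in knockout mice for each member without overlap, at -1.347 ± 0.0046 against -1.338 ± 0.0028 for TRBV13-1, -1.52 ± 0.015 against -1.48 ± 0.019 for TRBV13-2 and -1.178 ± 0.0042 against -1.158 ± 0.013 for TRBV13-3. The share of TRBJ2 with TRBV13-1 in CD8SP was 71.9% ± 0.321 in knockout and 73.0% ± 0.704 in WT mice. The genotype differences in net charge in CD8SP were -0.0088 ± 0.0061, -0.045 ± 0.0096 and -0.020 ± 0.017 for TRBV13-1, TRBV13-2 and TRBV13-3, beside lineage differences of 0.26, 0.24 and 0.21.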

How the data were processed

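Clonotype tables of alpha and beta chains from 12 libraries were used. The deposited counts are whole-number reads per clonotype, per the file headers, and the deposited fraction, a count over its file's total, was used only as a check. The series' design text names MiXCR, whose version and parameters are not given in the sources used here, and the submitters' processing notes name the build mm10. The labels name 3 separate samples per group, and p-values measure only the spread between these, which may be partly technical.

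Productive reads were summed per segment, V and J pair, CDR3 length, residue and clonotype. R 4.3.3 with edgeR 4.0.16 was run on each whole table: quasi-likelihood test, filterByExpr, productive reads or reads of the V segment as library size, Benjamini-Hochberg adjustment, threshold 0.05. CD4SP against CD8SP had the mouse as a block. Genotype contrasts had the replicate number as a block, since the design text names pairs and a paired comparison, and ignored that both lineages come from the same animals. Standard errors are the log2 difference over the square root of F. Measures per library were compared by exact sign-flip permutation tests, two-sided, with scipy 1.17.1, pandas 2.3.3 and numpy 2.4.6 under Python 3.11.15, and figures drawn with matplotlib 3.10.9. The fits were tested on simulated counts with known changes, where small changes of single clonotypes were not recovered and large ones mostly were.

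The members, lists and measures were chosen with earlier results of these data known. Named joins, lengths, residues and clonotypes were, per member, at most the 3 largest called differences in each direction or, where a contrast had none, the 1 of smallest p. Alternatives were DESeq2 1.42.0, TMM factors, no filter on low counts, each clonotype counted once, no clonotypes of 1 read, no tied V hits, no block, the 6 libraries of a lineage alone, and each mouse left out.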

Additional observations from a re-analysis of the deposited data

Results flagged for a closer look

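The effect of genotype on the net charge of the CDR3 had opposite signs in the CD4SP and CD8SP lineages for TRBV13-2 in every same-numbered pair. Knockout minus WT was 0.031 ± 0.019 charges in CD4SP and -0.045 ± 0.0096 in CD8SP (SD, 3 pairs), a gap of 0.0758. For the reads of the whole family the differences were 0.022 ± 0.025 and -0.019 ± 0.0064, a gap of 0.0412. The family value includes the TRBV13-2 reads and is not separate evidence. For TRBV13-1 and TRBV13-3 the signs were not opposite in every pair, with gaps of 0.0233 and 0.0477. With 3 pairs an exact sign-flip permutation test of the gap of TRBV13-2 gives p = 0.25, the smallest it can give, and 0.811 adjusted over 40 comparisons, so the gap did not pass. The replicate numbers that form the pairs were not borne out by the data, and the signs of TRBV13-2 in CD4SP depend on them. Knockout 1 had -1.270 there, below WT 2 and WT 3 at -1.263 each, so the genotypes overlapped.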

How the results depend on the processing

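Of 22 results, counts of calls stayed within 1.5 times the reported one under each alternative run except for the clonotypes that differ between CD4SP and CD8SP (15), which became 25 with DESeq2, 7 without clonotypes of 1 read and 0 without the filter on low counts. Genotype counts of the measures per library could not move, since the smallest p is 0.25 over 3 pairs and 0.1 without the block. Single mice were left out only in the edgeR fits, not in the sign-flip tests. Counting each clonotype once left no clonotype to test. Without 1 mouse at a time, counts between lineages ran from 22 to 23 joins, 19 to 25 lengths, 22 to 27 residues and 12 to 16 clonotypes. Without the replicate block they were 22 joins, 24 lengths, 28 residues and 20 clonotypes, and 0 genotype calls appeared. Deviations of same-numbered WT and knockout libraries correlated at -0.16, -0.055 and 0.14 in CD4SP and -0.55, -0.29 and 0.50 in CD8SP over 21 segments. Differently numbered libraries ran from -0.20 to 0.31 in CD4SP and from -0.45 to 0.63 in CD8SP. The numbers are thus not shown to pair the mice.

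Some genotype differences of members near 0 changed sign, none being called. TRBV13-1 in CD4SP became 0.00098 with each clonotype counted once, and ran from -0.035 to 0.021 without 1 mouse, above 0 without knockout 2 (0.011), WT 1 (0.0040) or WT 2. TRBV13-2 in CD4SP became -0.0016 without clonotypes of 1 read, and ran from -0.036 (without WT 2) to 0.057, also below 0 without knockout 3 (-0.0014). TRBV13-3 in CD8SP ran from -0.039 to 0.015 (without WT 1), also above 0 without knockout 1 (0.0022) or knockout 2 (0.011). The difference of the genotype effect between lineages ran from -0.16 to 0.017 (without WT 3) for TRBV13-2, and from -0.0040 (without WT 1) to 0.045 for TRBV13-3. Depth limits the nonproductive shares of TRBV13-2 and the tests of single clonotypes.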
